A study of Arabidopsis thaliana with 12 samples.

Results

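The Aux/IAA genes encode short-lived repressors of the response to the plant hormone auxin, and 10 of them were followed here by their gene IDs, out of 27655 genes in the deposited table: IAA1, IAA2, IAA3, IAA5, IAA6, IAA7, IAA14, IAA17, IAA19 and IAA29. All 10 were present in the table and passed the filter on low values. Expression was measured by RNA sequencing of Arabidopsis thaliana seedlings aged 3 weeks, in 4 groups of 3 libraries, kept at 22 °C in days of 16 h light and 8 h dark. The groups, by genotype, were wild type (labelled WT (Col), here Col), plants labelled h3.3ko;HTR5 (here HTR5), in which the H3.3 genes are knocked out by label and HTR5 is put back, plants labelled h3.3ko;HTR5 K4A (here K4A), whose HTR5 has alanine in place of lysine 4, and libraries labelled sdg2. SDG2 encodes a methyltransferase of that lysine. The labels name no treatment for any group, and both knockout groups carry a transgene whose promoter and number of lines the labels do not give. The labels do not say whether replicates came from separate plants or batches, so the tests measure the spread between these libraries, which may be technical.

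An Aux/IAA protein binds an auxin response factor (ARF) at the promoters of auxin-responsive genes and brings in the co-repressor TOPLESS through a leucine-rich motif. Auxin acts as a glue between an F-box receptor of the TIR1 and AFB family and the degron of the Aux/IAA protein, which is then tagged with ubiquitin and degraded, freeing the ARF. Many Aux/IAA genes are themselves induced by auxin within minutes, together with the SAUR genes of cell expansion and the GH3 genes, whose enzymes join auxin to amino acids.

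The degron core is a run of codons for glycine, tryptophan and a pair of prolines, and it is shown because it is the part of the protein that auxin acts on. A search of the longest coding sequence of each gene in the RefSeq annotation of TAIR10.1 found it once in each of the 10 members, each time within 1 exon. In capitals below are the codons of that core, with the coding bases on either side, read 5′ to 3′ on the coding strand.
IAA1 (chr4:8361433-8361468, plus strand): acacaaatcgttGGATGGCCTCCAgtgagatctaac
IAA2 (chr3:8181384-8181419, minus strand): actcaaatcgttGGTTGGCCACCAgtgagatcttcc
IAA3 (chr1:1129016-1129051, minus strand): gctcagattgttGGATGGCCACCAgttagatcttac
IAA5 (chr1:5366272-5366307, minus strand): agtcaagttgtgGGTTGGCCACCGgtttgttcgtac
IAA6 (chr1:19673320-19673355, minus strand): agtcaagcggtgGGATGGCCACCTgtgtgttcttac
IAA7 (chr3:8195565-8195600, plus strand): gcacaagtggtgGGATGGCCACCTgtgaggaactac
IAA14 (chr4:8349475-8349510, minus strand): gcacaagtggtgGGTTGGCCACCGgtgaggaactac
IAA17 (chr1:1136935-1136970, plus strand): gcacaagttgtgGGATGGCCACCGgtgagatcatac
IAA19 (chr3:5264304-5264339, plus strand): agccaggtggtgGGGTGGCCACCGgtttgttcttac
IAA29 (chr4:15583939-15583974, plus strand): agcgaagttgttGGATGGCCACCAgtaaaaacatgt
The core was spelled in 7 ways at the DNA level. A run of 3 leucines spaced by 1 residue each, the form of the co-repressor motif, was also found in the coding sequence of all 10 members.

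Libraries and labels were checked first. Reads recovered from the values came to 13709779 to 14527352 per library in Col and HTR5 and to 20714939 to 30352046 in K4A and sdg2, and the 10 highest genes took 7.98 to 11.3% of TPM (transcripts per 1000000, by gene length) in Col and HTR5 libraries and 4.66 to 5.64% in the others. Depth therefore parts the libraries as K4A versus HTR5 and sdg2 versus Col do, and a batch with this split and the genotype cannot be told apart. HTR5 replicate 2 stood apart, with 15.2 and 18.5 as its chi-square per degree of freedom, over the reads of all genes, against the other HTR5 libraries, where the other pairs of replicates had 1.79 to 5.91. HTR8, an H3.3 gene, stood at 3.99 to 10.1 TPM in the knockout groups and at 171.7 to 248.6 TPM in the others, whereas HTR4, another H3.3 gene, stood at 71.9 to 179.3 TPM in the knockout groups, so the knockout is given by its label. SDG2 stood at 138.9 to 174.2 TPM in the libraries labelled sdg2 and at 18.3 to 30.7 TPM elsewhere, which goes against a loss of its transcript, so sdg2 below names libraries by their label. Leaf markers (RBCS1A, RBCS3B, LHCB2.1, LHCB3 and LHCB5) summed to 12348 TPM or more in each library. Of 10 root markers, chosen for root hairs, root tip and stele, 8 or 9 were under 1 TPM and 1 to 4 at 0 in each library of a group.

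Most of these genes fell in both K4A and the libraries labelled sdg2. In K4A versus HTR5, 7 of the 10 members were called lower and 0 higher (limma on log2(TPM + 1), Benjamini-Hochberg adjusted p under 0.05). Of all 20881 genes tested 68.6% were called in that comparison, 42.5% higher and 26.1% lower, or 34.4% lower with median-of-ratios scaling between libraries. In sdg2 versus Col, 9 of 10 members were called lower and 0 higher, where 73.2% of all genes were called, 52.4% higher and 20.7% lower, or 34.3% lower with that scaling. All 7 members that fell in K4A also fell in sdg2, a direction shared by 15.3% of all genes tested, or 24.7% with that scaling, and these comparisons have no library in common. When a call also needed a change of 2-fold, 4 and 6 members kept it in these comparisons, where 22% and 21.6% of all genes did. In the 3 further comparisons below 0 members reached 2-fold, where 1.42% of all genes did for HTR5 versus Col, 11.1% for the difference of effects and 10.4% for K4A versus sdg2. IAA29, IAA14 and IAA1 had the most negative log2 fold changes in K4A, and IAA14, IAA17 and IAA1 in sdg2. The median log2 fold change of the members was -0.94 in K4A and -1.08 in sdg2, against 0.14 and 0.31 for all tested genes. Less those medians, the members ran from -2.19 to 0.06 in K4A and from -2.50 to -0.10 in sdg2. In bulk RNA, fewer cells of a type and less RNA per cell cannot be told apart.

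**Figure D1:**
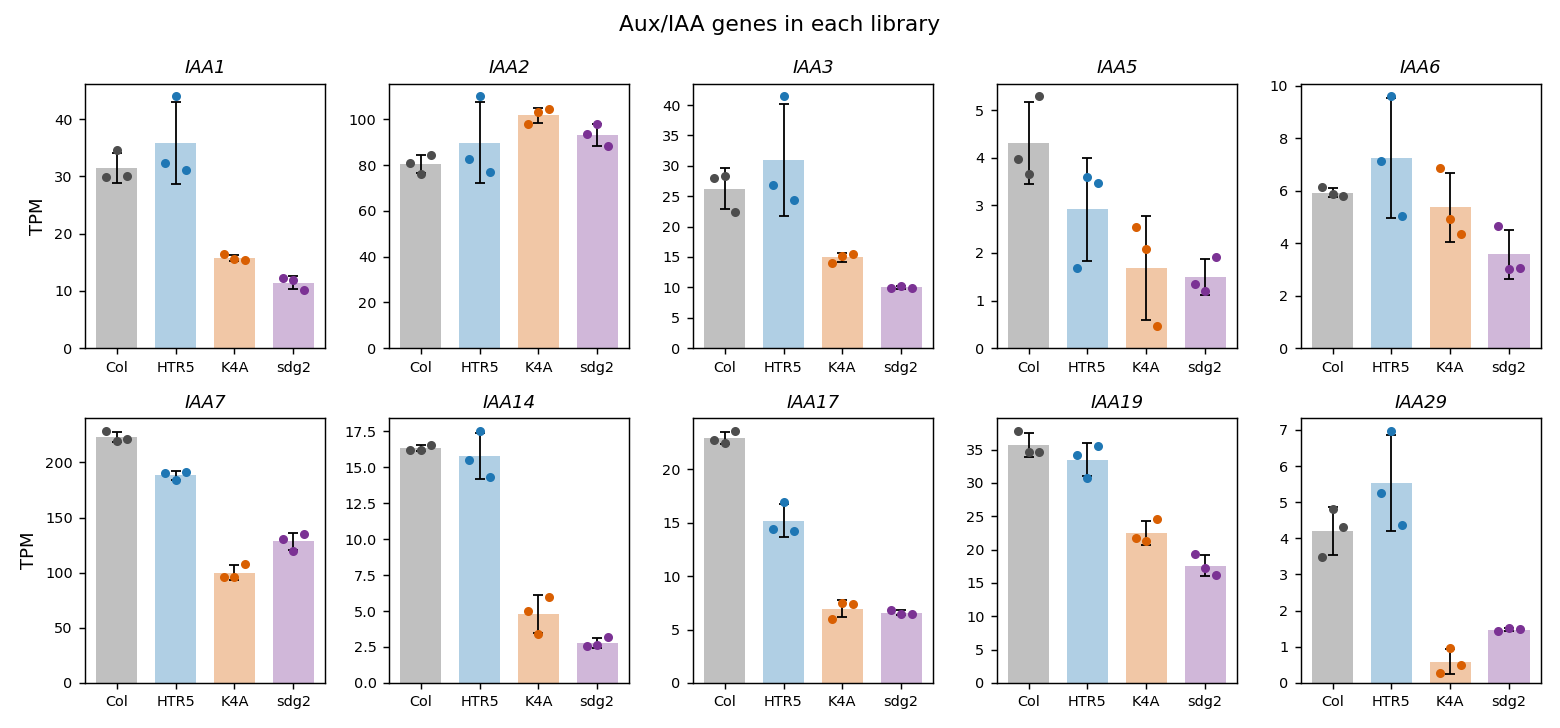
TPM of the 10 Aux/IAA genes in the 4 groups, each panel with its own axis from 0: points are libraries, bars are means of 3 libraries and error bars are SDs. IAA7 stood at 183.7 TPM or more in every Col and HTR5 library and at 134.8 TPM or less in every K4A and sdg2 library, while the IAA2 means were not lower in K4A and sdg2.

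IAA7, IAA14 and IAA17 form 1 clade of the family, and stabilised forms of them give the auxin-resistant mutants axr2, slr and axr3. IAA7 (AT3G23050, chr3:8194606-8197161, plus strand) had the highest TPM of the 10 in Col, HTR5 and sdg2, while in K4A its mean of 99.8 TPM lay beside 101.8 TPM for IAA2. Its replicates 1 to 3 had 228.5, 219.5 and 221.0 TPM for Col, 190.2, 183.7 and 190.9 for HTR5, 95.8, 96.1 and 107.7 for K4A and 130.3, 119.6 and 134.8 for sdg2. No 2 groups overlapped, and the order ran Col, HTR5, sdg2, K4A. The log2 fold change was -0.91 ± 0.0619 (SE) in K4A versus HTR5, with a limma adjusted p of 3.00e-09, and -0.79 ± 0.0619 in sdg2 versus Col, with 1.45e-08. IAA7 was 1 of 2 members called in HTR5 versus Col, where it was lower by a log2 fold change of -0.24 with a limma adjusted p of 0.0223. Of all genes 9.28% were called there, 5.5% higher and 3.78% lower. That call was lost when any 1 Col library was left out, with limma adjusted p-values of 0.0601 to 0.0846, and in a fit of these 6 libraries alone, with 0.0514.

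IAA14 (AT4G14550, chr4:8347822-8350263, minus strand) is the repressor whose stabilised form blocks lateral root initiation. In order of replicate, its libraries had 16.2, 16.2 and 16.6 TPM for Col, 15.5, 17.5 and 14.3 for HTR5, 5.0, 3.38 and 5.99 for K4A and 2.58, 2.63 and 3.2 for sdg2. Col and HTR5 overlapped, K4A lay below both, and sdg2 lay below K4A. Its mean in sdg2 was 5.83-fold lower than in Col, and its mean in K4A was 3.3-fold lower than in HTR5. The log2 fold changes were -2.19 ± 0.149 (SE) in sdg2 versus Col and -1.56 ± 0.149 in K4A versus HTR5, with limma adjusted p-values of 2.80e-09 and 1.69e-07.

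IAA17 (AT1G04250, chr1:1136078-1138663, plus strand) had 22.8, 22.5 and 23.6 TPM in the Col libraries, 14.5, 17.0 and 14.2 TPM in those of HTR5, 6.03, 7.46 and 7.41 in those of K4A and 6.83, 6.43 and 6.47 in those of sdg2. Its level was thus lower in HTR5 than in Col, and K4A and sdg2 lay lower still and overlapped each other. In HTR5 versus Col its log2 fold change came to -0.57 ± 0.104 (SE; limma adjusted p 0.00239), and it stayed under the adjusted p threshold in each alternative fit, with values of -0.70 to -0.52, but did not reach the 2-fold minimum. The further log2 change in K4A versus HTR5 was -1.03 ± 0.104, with a limma adjusted p of 3.23e-07. The log2 change in sdg2 versus Col was -1.66 ± 0.104, with 1.03e-09. The annotated exons cover 50.9% of the span of IAA17, the smallest share among the members, and by the match of whole reads the deposited TPM divide by the whole span.

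IAA1, IAA2 and IAA3 belong to another clade, and here they parted. IAA1 (AT4G14560, chr4:8360996-8362033, plus strand), the gene of the auxin-resistant mutant axr5, had 29.9, 34.5 and 30.0 TPM in the Col libraries, 32.4, 44.0 and 31.1 TPM in those of HTR5, 16.4, 15.5 and 15.4 in those of K4A and 12.2, 11.9 and 10.1 in those of sdg2. K4A and sdg2 lay below both control groups in every library. It fell by 1.12 ± 0.119 (SE) on the log2 scale in K4A versus HTR5 and by 1.39 ± 0.119 in sdg2 versus Col, with limma adjusted p-values of 5.59e-07 and 4.31e-08. IAA3 (AT1G04240, chr1:1128149-1129689, minus strand), also called SHY2 and known for holding back the root meristem, had 28.1, 28.4 and 22.4 TPM in the Col libraries, 26.9, 41.5 and 24.4 TPM in those of HTR5, 14.0, 15.2 and 15.5 in those of K4A and 9.85, 10.3 and 9.85 in those of sdg2. Its order was that of IAA1, with HTR5 replicate 2 high in both genes. IAA3 fell by 0.97 ± 0.150 in K4A versus HTR5, with a limma adjusted p of 3.58e-05, or by 0.74 with 8.80e-06 when HTR5 replicate 2 was left out. It fell by 1.30 ± 0.150 in sdg2 versus Col, with 1.35e-06. AT1G04230, on the opposite strand, overlaps 640 bp of IAA3 and stood at 10.9 to 13.1 TPM in the 4 group means, and since the use of strand is not given in the sources used here, reads of the overlap cannot be told apart.

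IAA2 (AT3G23030, chr3:8180646-8182095, minus strand), whose promoter is widely used as an auxin reporter, was not called in either comparison. Its TPM by replicate came to 81.0, 76.2 and 84.2 for Col, 82.7, 110.1 and 76.8 for HTR5, 98.1, 103.0 and 104.4 for K4A and 93.6, 98.0 and 88.3 for sdg2. All sdg2 libraries lay above all Col libraries, while those of K4A overlapped those of HTR5 because of its replicate 2. The log2 fold change was 0.20 with a 95% interval of -0.02 to 0.41 in K4A versus HTR5, and 0.21 with an interval of -0.00379 to 0.43 in sdg2 versus Col. The limma adjusted p-values were 0.0972 and 0.0713. Left-out libraries and scaling moved this result to either side. Without HTR5 replicate 2 the K4A value was 0.35 with a limma adjusted p of 8.70e-05, and the sdg2 value kept its size with 0.00213 in that fit, or 0.0425 without HTR5 replicate 3 and 0.00456 in a fit of sdg2 and Col alone. By contrast, quantile normalization gave -0.06 in K4A and median-of-ratios scaling gave -0.13 in sdg2.

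IAA5, IAA6 and IAA19 form a further clade. IAA19 (AT3G15540, chr3:5264001-5265695, plus strand), also called MSG2, acts in the bending growth of the hypocotyl. The 3 replicates had 37.8, 34.7 and 34.7 TPM for Col, 34.3, 30.7 and 35.5 for HTR5, 21.7, 21.3 and 24.6 for K4A and 19.3, 17.3 and 16.2 for sdg2. The control groups overlapped, and K4A and sdg2 each lay below them. IAA19 fell by 0.55 ± 0.0890 (SE) on the log2 scale in K4A versus HTR5, with a limma adjusted p of 5.07e-05, and by 0.98 ± 0.0890 in sdg2 versus Col, with 8.64e-08. IAA6 (AT1G52830, chr1:19672476-19673652, minus strand), the gene of the short-hypocotyl mutant shy1, had 6.12, 5.88 and 5.78 TPM in the Col libraries, 7.14, 9.60 and 5.04 TPM in those of HTR5, 6.86, 4.91 and 4.33 in those of K4A and 4.65, 3.03 and 3.03 in those of sdg2. Its K4A and HTR5 libraries overlapped. IAA5 (AT1G15580, chr1:5365512-5366497, minus strand) had 3.97, 3.67 and 5.29 TPM in the Col libraries, 1.67, 3.59 and 3.48 TPM in those of HTR5, 2.54, 2.07 and 0.460 in those of K4A and 1.35, 1.20 and 1.92 in those of sdg2. It rests on 4 to 33 reads per library, so its precision is low, and its K4A and HTR5 libraries overlapped as well.

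In sdg2 versus Col, IAA5 and IAA6 fell by 1.09 ± 0.285 (SE) and by 0.62 ± 0.198 on the log2 scale, with limma adjusted p-values of 0.00286 and 0.0110. In K4A versus HTR5 their log2 fold changes were -0.60 with a 95% interval of -1.20 to 0.00975 and -0.36 with an interval of -0.78 to 0.07, with limma adjusted p-values of 0.0747 and 0.122. Both were called lower in K4A with median-of-ratios scaling (0.0451 and 0.0308), quantile normalization (0.0410 and 0.0277) and limma-voom on the recovered reads (0.0411 and 0.0263, all limma adjusted p-values). The 7 calls in K4A thus became 9 under each of these scalings. Of all genes 26.1% were called lower there in the main fit and 34.4% with median-of-ratios scaling. The shares with quantile normalization and limma-voom are not given here. IAA5 was also called without HTR5 replicate 1 (-0.85) or K4A replicate 1 (-0.84), and IAA6 without HTR5 replicate 3 (-0.56) or K4A replicate 1 (-0.52). With Col as the control of K4A, IAA5 was called lower (-1.07), while IAA6 was not called (-0.14, limma adjusted p 0.536). AT1G15570, on the opposite strand, overlaps 48 bp of IAA5 and stood at 8.45 to 11.2 TPM in the group means.

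IAA29 (AT4G32280, chr4:15583332-15584903, plus strand) is known as a gene induced in shade and warmth through the phytochrome-interacting factors (PIFs). By replicate it had 3.49, 4.8 and 4.33 TPM for Col, 5.25, 6.97 and 4.37 for HTR5, 0.278, 0.961 and 0.505 for K4A and 1.43, 1.51 and 1.49 for sdg2. All K4A libraries lay below all sdg2 libraries, which lay below both control groups. The K4A values rest on 4, 17 and 7 reads, against 44 to 65 reads per library in HTR5. Its mean was 9.51-fold lower in K4A than in HTR5 and 2.85-fold lower in sdg2 than in Col. The log2 fold changes were -2.05 ± 0.180 (SE) and -1.06 ± 0.180, with limma adjusted p-values of 6.30e-08 and 7.17e-05. On the log2(TPM + 1) scale the change of so low a gene is understated, and the value in K4A was -3.15 with a pseudocount of 0.1.

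**Figure D2:**
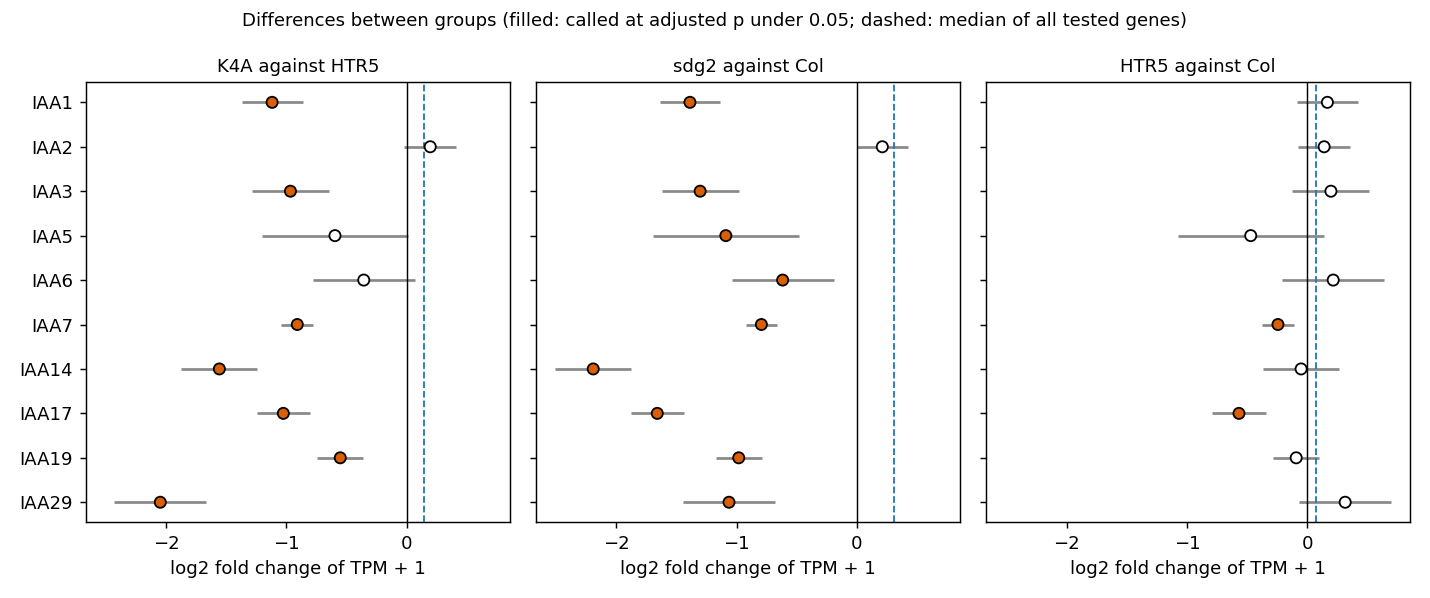
Log2 fold change of TPM + 1 for each member in 3 comparisons, with 95% intervals from limma: filled points were called at an adjusted p under 0.05, and the dashed line is the median of all tested genes. Members lie left of that line in K4A versus HTR5 except IAA2 at 0.20, and those called in HTR5 versus Col are IAA7 at -0.24 and IAA17 at -0.57.

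The effects of K4A and of sdg2 were set against each other by a test of the difference itself (K4A versus HTR5 minus sdg2 versus Col), which called 4 of the 10 members. That share is at the background, since 40.7% of all tested genes were called. By direction 3 members were called higher and 1 lower, where 14.1% of all genes were higher and 26.6% lower. With median-of-ratios scaling, quantile normalization or limma-voom, and also without HTR5 replicate 2, 6 members were called, 5 higher and 1 lower. The share of all genes in those fits is not given here. IAA29 was the member with the deeper fall in K4A, with a difference of -0.99 ± 0.254 (SE) and a limma adjusted p of 0.00642. IAA14, IAA17 and IAA19 fell further in sdg2, with differences of 0.64 ± 0.210, 0.63 ± 0.146 and 0.43 ± 0.126 and limma adjusted p-values of 0.0254, 0.00309 and 0.0135. The median difference of all tested genes was -0.16 without scaling between libraries, and 0.0074 with median-of-ratios scaling. For IAA14 the call was lost in 5 of 12 fits that left out 1 library (HTR5 replicate 3, K4A replicate 1 or 3, or sdg2 replicate 1 or 2), with limma adjusted p-values of 0.0508 to 0.0705. IAA1 and IAA3, at 0.27 and 0.34, were not called, but were called with 0.42 and 0.56 when HTR5 replicate 2 was left out. They were also called with median-of-ratios scaling (0.44 and 0.51), quantile normalization (0.41 and 0.48) and limma-voom (0.48 and 0.57). The difference for IAA5 was called, at 0.89, without K4A replicate 3. For IAA5, IAA6 and IAA7 the differences with all libraries were 0.49, 0.26 and -0.12, with 95% intervals of -0.36 to 1.35, -0.34 to 0.86 and -0.30 to 0.07. In the direct comparison of K4A with sdg2, where 50.2% of all genes were called (20.4% higher and 29.8% lower), 4 members were higher in K4A (IAA1, IAA3, IAA14 and IAA19) and IAA7 and IAA29 were lower. IAA6, at 0.48 with a limma adjusted p of 0.0574, was called higher without HTR5 replicate 2 or 3, K4A replicate 3 or sdg2 replicate 1 (0.0238 to 0.0410), and IAA2, at 0.13, was called higher with median-of-ratios scaling (0.21).

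**Figure D3:**
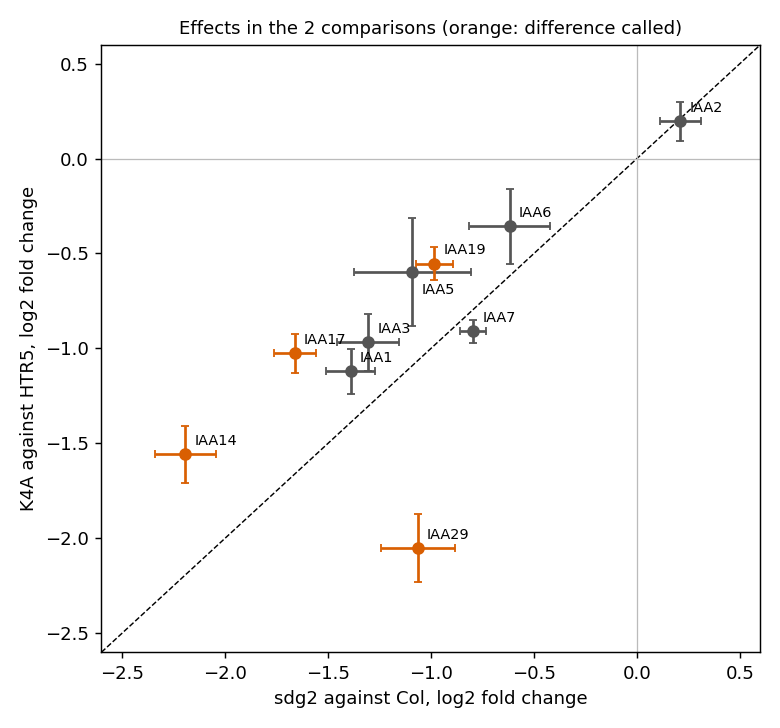
Log2 fold change of each member in sdg2 versus Col (horizontal) and in K4A versus HTR5 (vertical), with SEs from limma: the dashed line marks equal effects and orange marks a called difference. IAA29 lies below the line at -1.06 and -2.05, while IAA14 lies above it at -2.19 and -1.56.

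The share of each gene in the family was also measured. To compare genes per length, TPM was rescaled from the whole span to the annotated exons. On that scale IAA7 led in each group, at 298.8 ± 6.44 (SD, n = 3) in Col and 133.7 ± 9.10 in K4A, followed by IAA2 at 85.9 ± 4.29 and 108.7 ± 3.53. IAA19 came next in each group, and IAA1, IAA3 and IAA17 shared the places after it in an order that changed between groups. IAA5 and IAA29 were the lowest pair in each group, and in Col, at 5.44 ± 1.09 and 5.15 ± 0.814, they did not differ beyond their spread. The 10 members summed to 594.1 ± 8.90 for Col, 549.6 ± 37.96 for HTR5, 344.6 ± 14.3 for K4A and 350.0 ± 8.01 for sdg2. IAA2 held 14.5 ± 0.701% of that sum for Col, 17.4 ± 2.18% for HTR5, 31.6 ± 0.855% for K4A and 28.5 ± 1.87% for sdg2. IAA7 held 50.3 ± 0.328% for Col, 46.1 ± 4.0% for HTR5, 38.8 ± 1.03% for K4A and 49.1 ± 2.43% for sdg2, so its share was lowest in K4A.

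**Figure D4:**
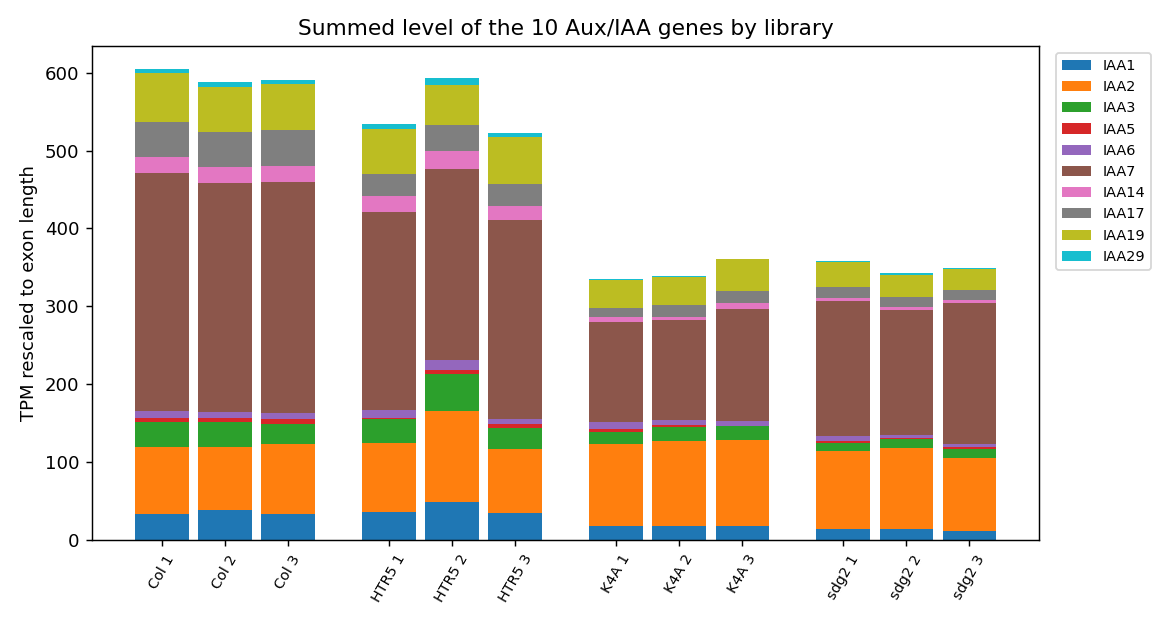
Summed level of the 10 Aux/IAA genes in each library, as TPM rescaled to exon length, stacked by gene. The sums lie at 522.3 or more in the Col and HTR5 libraries and at 361.0 or less in the K4A and sdg2 libraries, while the IAA2 segment does not shrink.

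Of the members, 6 lie in 3 pairs on the chromosomes, each gene transcribed away from its partner, with 1 annotated gene between them that the table does not list. IAA3 and IAA17 are 6388 bp apart on chromosome 1, IAA2 and IAA7 12510 bp on chromosome 3, and IAA14 and IAA1 10732 bp on chromosome 4. In the pairs on chromosomes 1 and 4 both genes fell in K4A and in sdg2. In the pair on chromosome 3 IAA7 fell in both and IAA2 was not called in either. Over all 12 libraries IAA1 and IAA3, which are no neighbours, had the closest patterns among the members, with a root mean square difference of 0.13 between their centred log2 values. IAA2 was farthest from IAA14, at 1.07.

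Promoters were read because members with different behaviour could be set beside the sequence before their starts. The element TGTCTC is a known binding motif of ARFs, TGTCGG a tighter-bound form of it, and CACGTG the G-box bound by PIFs. In the 250 bases before the annotated start, on both strands, TGTCTC was found in 4 of 10 members (IAA1, IAA5, IAA6 and IAA19), and in 10.9% of 27443 promoters of nuclear protein-coding genes. TGTCGG was found in IAA1 and IAA5, against 4.16% of promoters, and CACGTG in IAA7 and IAA19, against 6.49%. IAA19 held the most copies of TGTCTC, at 184, 145 and 128 bases before the start, and its G-box began at 70 bases before it. In capitals are matches to these 3 motifs on either strand, in sequence from TAIR10.1.
IAA1 (chr4:8360746-8360995, plus strand): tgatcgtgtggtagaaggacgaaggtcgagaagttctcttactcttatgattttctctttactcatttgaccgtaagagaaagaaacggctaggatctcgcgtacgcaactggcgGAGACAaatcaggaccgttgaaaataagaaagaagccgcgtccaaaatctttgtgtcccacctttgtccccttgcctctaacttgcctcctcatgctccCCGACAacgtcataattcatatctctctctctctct
IAA19 (chr3:5263751-5264000, plus strand): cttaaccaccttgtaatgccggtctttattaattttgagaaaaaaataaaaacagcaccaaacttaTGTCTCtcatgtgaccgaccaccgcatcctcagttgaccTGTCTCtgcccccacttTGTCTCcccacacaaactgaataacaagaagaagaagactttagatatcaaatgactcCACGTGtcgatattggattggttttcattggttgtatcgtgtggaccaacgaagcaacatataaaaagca
IAA29, which fell most in K4A, held none of these motifs in the same window. Neither did IAA3, IAA14 and IAA17, which also fell, nor IAA2, which was not called.

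The rest of the auxin pathway was described from lists of other genes, chosen with earlier results of these data known. For every list below, the shares of all tested genes are 42.5% called higher and 26.1% lower in K4A versus HTR5. In sdg2 versus Col they are 52.4% and 20.7%. With median-of-ratios scaling 34.4% and 34.3% of all genes were called lower in these comparisons. The shares called higher with that scaling are not given here, nor are any with quantile normalization or limma-voom. List counts under those scalings thus have no such share beside them. Of 19 other Aux/IAA genes 14 were tested. In K4A versus HTR5, 8 of them were called lower and 1 higher (median log2 fold change -0.46), and in sdg2 versus Col 9 were called lower and 1 higher, with a median of -0.64. IAA16, of the clade of IAA7, stood at 187.8 ± 3.08 TPM for Col, 190.8 ± 9.79 for HTR5, 101.6 ± 2.05 for K4A and 55.0 ± 3.4 for sdg2 (SD, n = 3). IAA4, IAA12 and IAA28 fell in both as well, by 1.10, 0.75 and 0.87 in sdg2 versus Col on the log2 scale. The gene called higher in both was IAA9, known from fruit set and leaf shape in tomato, which rose by 0.37 in K4A and 0.57 in sdg2.

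The other early auxin genes went opposite ways. Of 11 SAUR genes, 10 were called lower in each comparison and 0 higher, with medians of -1.84 in K4A and -1.77 in sdg2. SAUR24 fell from 38.7 to 5.28 TPM in K4A versus HTR5 and from 46.2 to 6.30 TPM in sdg2 versus Col. SAUR19 to SAUR24, which promote cell expansion, are close copies, so each single value is uncertain. Of 7 GH3 genes 5 were tested, and all 5 were called higher in each comparison, with medians of 1.65 and 1.15. GH3.2 had 3.45, 1.96 and 1.71 TPM in the Col libraries, 2.93, 1.96 and 1.95 TPM in those of HTR5, 57.0, 51.1 and 51.7 in those of K4A and 75.2, 73.5 and 68.1 in those of sdg2. GH3.3 rose from 7.75 to 46.3 TPM and from 7.94 to 45.5 TPM, whereas GH3.5 rose by 1.65 in K4A and by 0.19 in sdg2 on the log2 scale. The GH3 genes kept 5 higher calls in K4A under each scaling, but in sdg2 3 were called higher and 1 lower under each of the other scalings (median of ratios, quantiles, limma-voom). The SAUR counts were 10 lower and 0 higher under each of these.

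Receptors and response factors gave mixed calls. Without scaling between libraries, 42.5% and 52.4% of all tested genes were called higher in K4A and in sdg2. These shares do not apply to the counts with median-of-ratios scaling. Of 6 receptors, 3 were called higher and 1 lower in K4A versus HTR5, and 5 higher and 1 lower in sdg2 versus Col. With median-of-ratios scaling these counts were 1 higher and 2 lower in K4A, and 2 higher and 1 lower in sdg2, so no direction is given for the list. Among the activating ARFs, which the Aux/IAA proteins repress, ARF7 stood at 23.5 TPM for Col, 23.1 for HTR5, 44.6 for K4A and 62.9 for sdg2, a log2 fold change of 1.38 ± 0.0949 (SE) in sdg2 versus Col with a limma adjusted p of 3.29e-09. Calls among these 5 ARFs numbered 4 higher and 1 lower in K4A, and 2 higher and 1 lower in sdg2. With median-of-ratios scaling they numbered 2 higher and 1 lower in K4A, and 2 higher and 3 lower in sdg2. ARF8 fell by 0.49 in K4A. Of 8 other ARFs, mostly classed as repressors, 4 rose and 0 fell in K4A, while 5 rose and 1 fell in sdg2. With median-of-ratios scaling 2 rose and 0 fell in K4A, while 5 rose and 3 fell in sdg2. ARF3 rose by 0.72 in sdg2.

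Of 10 genes of auxin synthesis 5 were tested, with 1 higher and 3 lower in K4A and 2 higher and 3 lower in sdg2, or 0 higher and 3 lower there with median-of-ratios scaling. TAR2, an aminotransferase of that pathway, fell by 0.47 in sdg2. The 10 transport genes gave 2 higher and 5 lower calls in K4A and 1 higher and 5 lower in sdg2, among them the influx carrier LAX2, which fell from 37.1 to 17.3 TPM in sdg2, and the efflux carrier PIN3, which fell from 94.6 to 58.4 TPM there. With median-of-ratios scaling the transport counts were 0 higher and 5 lower in K4A, and 0 higher and 9 lower in sdg2. Of the 5 PIF-related genes, 3 were higher and 1 lower by call in K4A, and 1 higher and 3 lower in sdg2. With median-of-ratios scaling these counts were 2 higher and 1 lower in K4A, and 0 higher and 4 lower in sdg2. PIF4 fell in both, from 112.5 to 74.8 TPM and from 116.0 to 59.6 TPM. ATHB2, a shade marker, rose from 43.7 to 83.9 TPM in K4A.

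**Figure D5:**
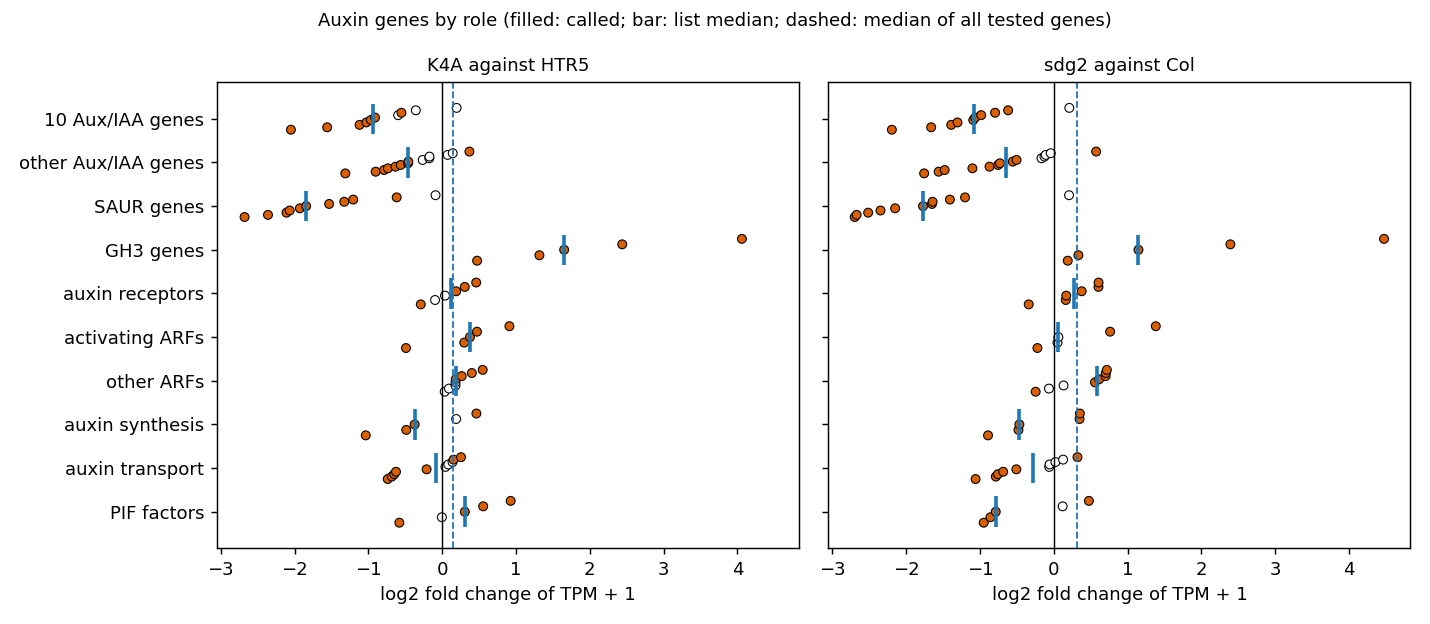
Log2 fold change of TPM + 1 for the tested genes of each auxin list in K4A versus HTR5 and in sdg2 versus Col: filled points were called, short bars are list medians and the dashed line is the median of all tested genes. SAUR medians lie at -1.84 and -1.77 and GH3 medians at 1.65 and 1.15.

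Other marked differences between groups were seen, not all with the same split, and their part in the Aux/IAA changes was not tested. The 5 leaf markers summed to 35376 to 42053 TPM in Col and HTR5 libraries, while the K4A sums lay at 17467 to 18355 and the sdg2 sums at 12348 to 14301. The 5 evening clock genes summed to 34.8 to 44.7 TPM in Col and HTR5 libraries, while the K4A sums lay at 237.0 to 249.3 and the sdg2 sums at 378.0 to 401.0. The 4 morning clock genes summed to 262.3 to 346.6 TPM in Col and HTR5 libraries, 205.3 to 215.3 TPM in K4A libraries and 45.2 to 49.0 TPM in sdg2 libraries. At which hour plants were harvested is not in the labels. The 5 pollen markers summed to 6.36 to 10.03 TPM in K4A, against 214.9 or more in each library of the other groups. In sdg2 versus Col 4 of them were called higher, and AGP23 was called lower (69.9 to 15.3 TPM). Of all genes 52.4% were called higher there and 20.7% lower. The 5 shoot meristem markers summed to 96.0 to 115.3 TPM in Col and HTR5 libraries, 76.0 to 82.4 TPM in K4A libraries and 83.2 to 89.9 TPM in sdg2 libraries. These markers did not move together. Of the 4 tested, 2 were called lower in K4A versus HTR5, where 26.1% of all genes were. In sdg2 versus Col 1 was called lower, where 20.7% of all genes were, and 3 were not called. That 1 was KNAT1 (72.4 to 46.0 TPM), while STM stood at 34.0 TPM for Col and 37.0 for sdg2.

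For each member the gene outside the family with the most alike pattern over the 12 libraries was looked up, by the root mean square difference of centred log2(TPM + 1) values, as a description. AT2G05310 was closest to IAA1 at 0.09, and MYB29, a regulator of aliphatic glucosinolate synthesis, was closest to IAA14 at 0.15. MYB29 stood at 95.6 TPM for Col, 85.9 for HTR5, 32.5 for K4A and 18.1 for sdg2. AT1G33430 was closest to IAA29 at 0.18, with 33.0, 44.6, 8.76 and 14.1 TPM in that order of groups. The other nearest genes were ATAB2 for IAA2 (0.05), ATTPPA for IAA3 (0.12), AT1G78480 for IAA5 (0.25), AT5G66270 for IAA6 (0.14), AT4G26540 for IAA7 (0.08), AT1G62510 for IAA17 (0.11) and AT1G21440 for IAA19 (0.08). In the same order of groups AT1G62510 had means of 2.18, 1.32, 0.0 and 0.0 TPM, and AT1G78480 had 1.03, 0.93, 0.27 and 0.16. AT5G66270 was as low, with 1.83, 2.23, 1.76 and 0.84 TPM. Changes of genes this low are understated on the log2(TPM + 1) scale, so the likenesses to IAA17, IAA5 and IAA6 are limited.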

How the data were processed

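Values were TPM deposited by the authors for 27655 genes. The submitters' processing notes name fastp 0.20.1, HISAT2 2.1.10 and DESeq2 1.26.0, with no roles, and the build TAIR10. The counting tool and the use of strand are not given in the sources used here. The last sdg2 column is headed as counts; since it holds fractions and has the sum of the TPM columns, it was taken as TPM. With the gene spans of the RefSeq annotation of TAIR10.1, 99.98% of the values above 0 came out as whole reads (within 0.01 of a read), which is the ground for using its coordinates and for the depths given. Removal of duplicate reads is not given in the sources used here, and statements on depth cover counting error only.

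The test was limma 3.58.1, run in R 4.3.3 on log2(TPM + 1) (mean-variance trend, 1 mean per group, all 12 libraries in 1 fit), on the 20881 genes that reached a TPM of 1 in 3 or more libraries, with Benjamini-Hochberg adjustment over all of them and calls at an adjusted p under 0.05. The fit was tested on simulated data first. Compared were K4A versus HTR5, sdg2 versus Col, HTR5 versus Col, K4A against sdg2, and the difference of the first pair. HTR5 versus Col shares libraries with each of the comparisons before it.

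For each member the gene outside the family with the smallest root mean square difference was named, among tested genes with a sufficient SD over libraries.

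The members and lists were chosen with earlier results of these data known. All members are named. From each list up to 4 called genes with a mean TPM of at least 5 in the higher group and the largest change in K4A versus HTR5 or sdg2 versus Col could be named, apart from IAA9, IAA30 and IAA31, which were named after their values were seen. Of 115 listed genes all 115 carry their symbol in RefSeq. Degron and promoter sequences are from the RefSeq copy of TAIR10.1.

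Tried beside this were other pseudocounts (0.1 and 0.5), other filters (none, or a mean TPM of 5), other scalings (by median of ratios, by quantiles, or limma-voom on recovered reads), only the compared groups in the fit, a block for replicate number, leaving out each library, a minimum change of 2-fold, and Col as the control of K4A.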

Additional observations from a re-analysis of the deposited data

Results flagged for a closer look

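The effects of K4A and of sdg2 differed for 4 of the 10 Aux/IAA genes by the test of the difference between them, a share at the background, since 40.7% of all genes were called. Under each of the other scalings 6 were called, and the share of all genes there is not given here. IAA29 had a log2 difference of -0.99, from -2.05 in K4A versus HTR5 and -1.06 in sdg2 versus Col. IAA14 had 0.64, from -1.56 and -2.19. IAA17 had 0.63, from -1.03 and -1.66, and IAA19 had 0.43, from -0.55 and -0.98. For IAA17 the value in HTR5 versus Col was -0.57, so its K4A libraries were set against a control that was itself lower than Col, and in the direct comparison of K4A with sdg2 its log2 fold change was 0.07 with a limma adjusted p of 0.620. For IAA29 the direct comparison gave -0.67 with a limma adjusted p of 0.00585.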

How the results depend on the processing

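Of the single-gene values recomputed for the 10 members over all comparisons and alternatives, 974 kept their direction and their side of the threshold, 35 passed it only in the alternative, 9 no longer passed it and 22 changed sign. Many of these values could not change sign. The log2 fold change is fixed under another filter, with only the compared groups in the fit, and with the replicate block. It is also fixed when the library left out lies outside the comparison. In those fits only the adjusted p could move, so the count that kept direction overstates how far direction was tested. The 7 lower calls in K4A versus HTR5 and the 9 in sdg2 versus Col were each kept in direction and call under every alternative that gave them a value, apart from the minimum of 2-fold below. With a filter at a mean TPM of 5, the lowest members were not tested and have no value. IAA2 changed sign with quantile normalization in K4A versus HTR5 (-0.061), and in sdg2 versus Col by scaling with median of ratios (-0.13), by quantiles (-0.079) and in limma-voom (-0.14). In the difference of effects IAA2 changed sign under the same alternatives (0.17, 0.018 and 0.17), as did IAA7 with median-of-ratios scaling and limma-voom (0.071 and 0.070), and in K4A against sdg2 IAA5 did so at pseudocounts of 0.1 (-0.083) and 0.5 (-0.0071). The cause was not tested. With 1 library left out, the log2 values in HTR5 versus Col ran from -0.013 to 0.24 for IAA2, from -0.028 to 0.34 for IAA3 and from -0.12 to 0.014 for IAA14. Those in the difference of effects ran from -0.12 to 0.14 for IAA2, and those in K4A against sdg2 from -0.22 to 0.42 for IAA5.

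In HTR5 versus Col, 5 of the other auxin genes were called, but 3 with the filter at a mean TPM of 5, 9 with median-of-ratios scaling, 13 with limma-voom, 2 in the fit of the compared groups alone and 1 to 9 with 1 library left out. The 2 members called there became 1 in the fit of the compared groups alone and 1 to 2 with 1 library left out. The shares of all genes called in these alternatives are not given here. When a call also needed a 2-fold change, fewer genes could pass by construction. The members then numbered 4 in K4A versus HTR5, and 0 in HTR5 versus Col, in the difference of effects and in K4A against sdg2. The other auxin genes numbered 15 in K4A versus HTR5, 19 in sdg2 versus Col, 1 in HTR5 versus Col, 4 in the difference of effects and 3 in K4A against sdg2, from 52, 55, 5, 29 and 37. These are counts out of 69 tested. In the same order, 22%, 21.6%, 1.42%, 11.1% and 10.4% of all genes passed with the 2-fold minimum. Without it 68.6%, 73.2%, 9.28%, 40.7% and 50.2% of all genes passed. With Col as the control, IAA2 was called higher in K4A (0.34) and IAA5 lower (-1.07). IAA6 was not called there (-0.14, limma adjusted p 0.536).

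Replicates with the same number did not deviate together: of 18 pairs 0 had a correlation over 0.1 (-0.14 to 0.07), and 6 correlated best with their own number, so the numbers do not pair the libraries. With the replicate number as a block, 7 members were called in K4A versus HTR5, 9 in sdg2 versus Col, 2 in HTR5 versus Col, 4 in the difference of effects and 7 in K4A against sdg2, where IAA6 (0.48, limma adjusted p 0.0355) was added. The shares of all genes called with this block are not given here. Depth limits IAA5 and IAA29, which rest on as few as 4 reads in a library.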

Other observations

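Among the other Aux/IAA genes, IAA31 was low outside Col. Its replicates 1 to 3 had 3.07, 2.81 and 3.1 TPM for Col, 0.639, 0.287 and 0.133 for HTR5, 0.743, 0.681 and 0.0965 for K4A and 0.494, 0.202 and 0.380 for sdg2, on at most 23 reads in any library. It was the only other Aux/IAA gene called in HTR5 versus Col, with a log2 fold change of -1.58 and a limma adjusted p of 5.82e-05, and its value in K4A versus HTR5 was 0.14 with 0.529. IAA30, known as a member without the usual degron, stood at 3.92 ± 1.58 TPM (SD, n = 3) for Col, 3.67 ± 1.80 for HTR5, 0.806 ± 0.223 for K4A and 0.776 ± 0.620 for sdg2, and fell by 1.31 and by 1.48 on the log2 scale in K4A and in sdg2. IAA9, which was called higher in both, stood at 235.6 ± 8.11 TPM for Col, 234.0 ± 31.3 for HTR5, 300.8 ± 10.4 for K4A and 351.4 ± 16.8 for sdg2.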
